A study of Mus musculus with 6 samples.

Results

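The 9 genes described here code for core steps of insulin signalling in the liver: Insr, Irs1, Irs2, Pik3r1, Akt1, Akt2, Gsk3b, Foxo1 and Foxo3. They were followed through every probe set, a group of short array probes read as 1 transcript, that the array annotation gives to exactly 1 of them. That gave 29 probe sets of the 45037 tested, for 9 of 18193 genes. A further probe set, 1 in number, names Foxo3 together with another gene and was left out. The arrays compared A/J mice with A/J-12SM mice, a consomic strain whose chromosome 12 came from SM/J on an otherwise A/J background. All mice were males and had eaten a high-fat diet over 7 weeks, so both groups share it and no group without it was measured here. There were 3 arrays for each strain, and each array held liver RNA pooled from 3 mice. The age of the mice and the feeding state at liver collection are not given for these arrays in the sources used here.

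Insulin binds the receptor Insr, a tyrosine kinase, which phosphorylates the adaptor proteins Irs1 and Irs2. These recruit phosphoinositide 3-kinase through its regulatory subunit Pik3r1, and the lipid it makes activates the kinases Akt1 and Akt2. AKT inhibits Gsk3b, a kinase that restrains glycogen synthesis, and keeps the transcription factors Foxo1 and Foxo3 out of the nucleus. In liver, FOXO1 promotes transcription of gluconeogenic genes and of Irs2 when insulin is low. Most of this regulation acts through phosphorylation, which a transcript array does not measure. The question addressed here is whether the transcripts of these components differed between the livers of the 2 strains.

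Values are MAS5 signals, the brightness of a probe set, placed on a log2 scale after quantile normalisation. A log2 difference of 1 is a doubling, and a difference is always A/J-12SM minus A/J. Before normalisation, the trimmed mean signal of an array was 201 to 213 in A/J and 171 to 186 in A/J-12SM. Correlations between arrays were 0.921 to 0.933 within a strain and 0.922 to 0.930 between strains. All 10 hepatocyte markers were at or above the median brightness of the array (log2 5.33), with a median difference of 0.05. A probe set below that median is called dim here. Brightness depends on the probes as well as on the transcript, so levels were compared between strains only, never between genes. Fewer cells of a type and less RNA per cell cannot be told apart in such samples. Nothing in the labels separates the arrays further into batches.

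No transcript of the 9 genes passed the test for a difference between the strains. By their brightest probe sets, the differences ran from -0.08 for Gsk3b to 0.78 for Irs2. Of their 29 probe sets, 0 were called by limma at an adjusted p under 0.05, where 0.0555% of all probe sets, 25 in number, were called. Before adjustment 3 of the 29 had a limma p under 0.05, against 6.23% of all probe sets. They belonged to Irs1 and Foxo1, with higher values in A/J-12SM, and to Pik3r1, with lower values. In 4 of their 22 brighter probe sets the strains had no overlapping arrays, against 13.8% of all probe sets of that brightness. These were the single Irs1 probe set, 2 of Foxo1 and 1 of Pik3r1, and none of the 7 dim ones separated. Taking each gene by its brightest probe set, 8 of the 9 had a higher mean in A/J-12SM and 1, Gsk3b, a lower mean. The median difference over the 9 genes was 0.18, beside -0.01 over all genes. It was 0.11 without A/J-12SM replicate 3, 0.03 when the probe sets of each gene were averaged and -0.02 on the values as deposited. Over all 29 probe sets, 16 had higher and 13 lower means in A/J-12SM, with a median of 0.03. Of the 9, 0 were called, beside 0.0660% of all genes. Irs1 and Foxo1 were the 2 with an unadjusted p under 0.05, beside 6.78% of all genes. The same 2 had arrays that did not overlap, beside 12.3% of all genes.

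**Figure D1:**
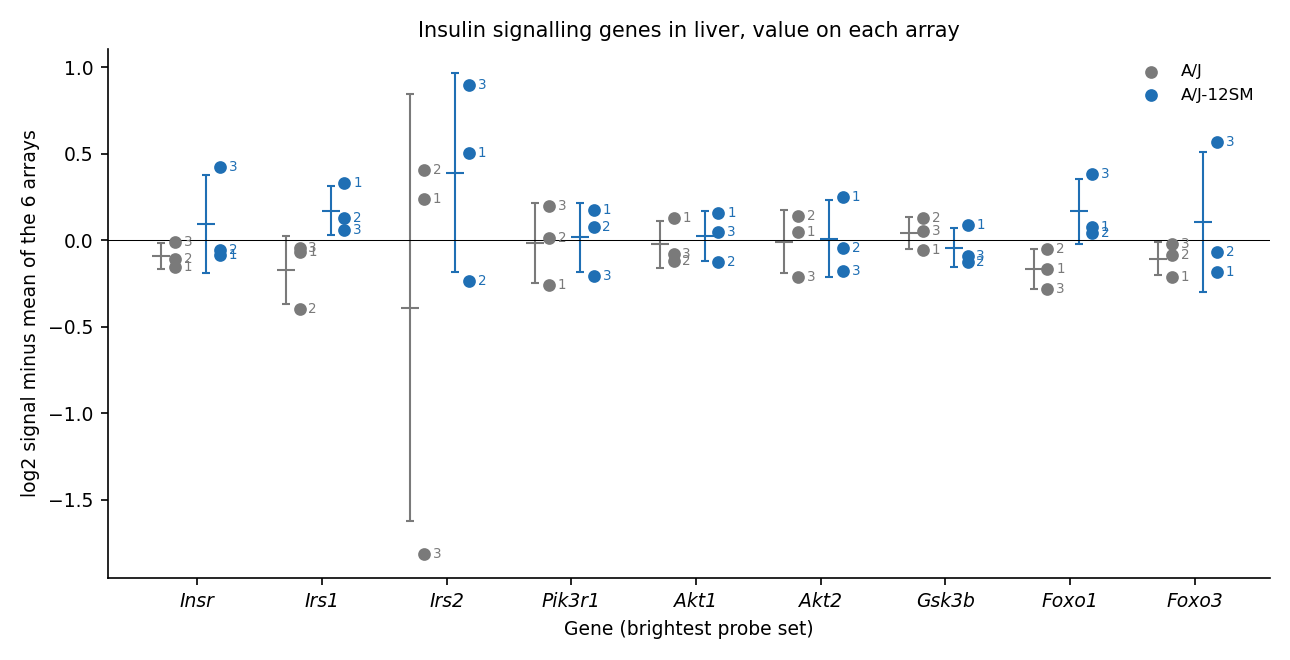
The log2 signal of each gene's brightest probe set on each array, minus the mean of the 6 arrays (vertical axis), for A/J in grey and A/J-12SM in blue. Points are arrays with their replicate numbers, and bars give the mean and SD of 3 arrays. The strains separate for Irs1 and Foxo1 only, and A/J replicate 3 of Irs2, at 3.13 before centring, lies far below the other arrays.

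The receptor Insr (chr8:3150922-3279649, GRCm38.p6) was bright, with log2 signals of 9.96, 10.01 and 10.11 on the A/J arrays against 10.03, 10.06 and 10.54 for A/J-12SM. A/J-12SM replicate 3 stood above the other 5 arrays, and the remaining values overlapped. The difference was 0.18 (SE 0.13, 95% interval -0.12 to 0.48; limma adjusted p = 0.865). Without A/J-12SM replicate 3 it was 0.02. The second probe set of Insr, nearer the median brightness, read 5.41, 5.60 and 4.91 on the A/J arrays against 5.44, 5.80 and 5.78 for A/J-12SM, with a difference of 0.36 (SE 0.30). The third was dim, with a difference of -0.51, so the 3 probe sets of Insr did not share a sign.

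Irs1 (chr1:82233105-82291439), the adaptor that carries the signal from the receptor to the lipid kinase, had the lowest p among the 29 probe sets. Its single probe set read 9.14, 8.81 and 9.16 on the A/J arrays against 9.54, 9.33 and 9.26 for A/J-12SM. Every A/J-12SM array lay above every A/J array, by 0.10 at the nearest pair, but on the values as deposited the strains overlapped. The difference was 0.34 (SE 0.12, 95% interval 0.07 to 0.62), a ratio of 1.27 (1.05 to 1.54). This did not pass, with a limma p of 0.020 before and 0.735 after adjustment, and the exact permutation test gave p = 0.1, the lowest that 3 arrays against 3 allow. Leaving out single arrays gave 0.23 (without A/J replicate 2) to 0.40.

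Irs2 (chr8:10984681-11008929), the second adaptor and the one most tied to fasting in liver, was represented by a single dim probe set. Its values were 5.18, 5.35 and 3.13 on the A/J arrays against 5.45, 4.71 and 5.84 for A/J-12SM. The A/J arrays were split, with replicate 3 far below all the others. The difference of 0.78 was the largest of the 9 genes by size but had an SE of 0.60 (95% interval -0.57 to 2.13; limma adjusted p = 0.875). Without A/J replicate 3 it was 0.07. As a ratio the interval ran from 0.673 to 4.39, which leaves Irs2 the least well measured of the 9.

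The promoters of Irs1 and Irs2 are shown because each holds the core of the insulin response sequence described for liver genes. They are the 250 bases before the RefSeq start in GRCm38.p6, the C57BL/6J reference, on the gene's strand. Irs1 lies on the minus strand (window chr1:82291440-82291689) and so does Irs2 (window chr8:11008930-11009179). Capitals mark the motif CAAAACA or its reverse complement TGTTTTG, which lay 105 to 111 and 26 to 32 bases before the start of Irs1 and 31 to 37 bases before that of Irs2.
Irs1: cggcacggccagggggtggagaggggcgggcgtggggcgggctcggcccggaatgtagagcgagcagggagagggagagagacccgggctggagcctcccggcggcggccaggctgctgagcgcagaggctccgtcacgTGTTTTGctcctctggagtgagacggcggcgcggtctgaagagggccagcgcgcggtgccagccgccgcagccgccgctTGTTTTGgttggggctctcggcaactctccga
Irs2: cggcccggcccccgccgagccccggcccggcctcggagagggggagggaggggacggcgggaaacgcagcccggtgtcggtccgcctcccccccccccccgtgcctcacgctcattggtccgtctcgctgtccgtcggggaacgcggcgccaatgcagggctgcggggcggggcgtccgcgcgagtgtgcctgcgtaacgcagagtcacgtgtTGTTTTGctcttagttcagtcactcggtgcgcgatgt
The motif was found on either strand in 5.56% of 32851 promoter windows of that length. The motif GTAAACA (reverse complement TGTTTAC), which FOXO factors bind, was in 3.17%, and the 2 motifs overlapped in 2 windows. Promoter windows were held for 8 of the 9 genes, all but Insr, 13 windows in all. The insulin response motif was in the windows of 2 genes, and GTAAACA or its reverse complement in that of 1, Akt1. The 2 motifs are not divided by factor here: a window without GTAAACA may still be bound by FOXO factors. A match is a run of letters and not a measured binding site.

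Pik3r1 (chr13:101680761-101768217), the regulatory subunit of phosphoinositide 3-kinase, gave different readings from its 4 probe sets. The brightest read 8.85, 9.12 and 9.31 on the A/J arrays against 9.29, 9.19 and 8.91 for A/J-12SM, which overlapped throughout. Its difference was 0.03 (95% interval -0.28 to 0.35; limma adjusted p = 0.981), and its sign turned when A/J replicate 1 or A/J-12SM replicate 1 was left out (-0.09 and -0.05). The second probe set by brightness read 9.05, 9.19 and 8.89 on the A/J arrays against 8.81, 8.85 and 8.39 for A/J-12SM. Here every A/J-12SM array lay below every A/J array, by 0.04 at the nearest pair, with a difference of -0.36 (SE 0.14; limma adjusted p = 0.769). The third and the fourth gave -0.40 (SE 0.26) and -0.11 (SE 0.14), with overlapping arrays. Without A/J-12SM replicate 3, the second gave -0.215, the third -0.175 and the fourth -0.036. Thus 3 of the 4 probe sets had lower means in A/J-12SM and the brightest did not. Pik3r1 makes several transcript forms, and the probe sets were not matched to them here.

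Akt1 (chr12:112653821-112674884) is the only one of the 9 genes on the substituted chromosome, so its alleles came from SM/J in A/J-12SM. Its brightest probe set read 7.90, 7.65 and 7.69 on the A/J arrays against 7.92, 7.64 and 7.81 for A/J-12SM. The 2 sets of values nearly coincided, with a difference of 0.05 (SE 0.13; limma adjusted p = 0.968). The 95% interval of the ratio ran from 0.840 to 1.27. Its other probe sets gave differences of -0.08 (SE 0.18), 0.12 (SE 0.22) and, for the dim one, -0.38 (SE 0.69), and the arrays overlapped in each. Among genes on chromosome 12, 5 of 622 were called, or 0.804%. The probes follow a fixed mouse sequence, and whether SM/J bases under them alter the Akt1 signal was not tested.

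The window before the start of Akt1 (minus strand, chr12:112674885-112675134, GRCm38.p6) is shown because it lies on the substituted chromosome. Among the windows held for 8 of the 9 genes, it is also the only one with GTAAACA or its reverse complement. The letters are those of the C57BL/6J reference and not of A/J or SM/J. Capitals mark TGTTTAC, 155 to 161 bases before the start; a second Akt1 start in the same table had neither motif in its window.
Akt1: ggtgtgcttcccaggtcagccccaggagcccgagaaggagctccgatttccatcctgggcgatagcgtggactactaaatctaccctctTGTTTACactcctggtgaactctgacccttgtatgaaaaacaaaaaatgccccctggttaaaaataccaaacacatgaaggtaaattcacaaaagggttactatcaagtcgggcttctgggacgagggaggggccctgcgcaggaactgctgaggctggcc

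Akt2 (chr7:27591552-27640826), the AKT form most tied to insulin action on glucose, read 8.95, 9.05 and 8.69 on the A/J arrays against 9.16, 8.86 and 8.72 for A/J-12SM. The values interleaved, and the difference was 0.02 (SE 0.14; limma adjusted p = 0.989). The 95% interval of the ratio was 0.815 to 1.26. This brightest probe set carries the maker's suffix for probes shared by several transcripts, so its signal may not be of Akt2 alone. The other bright probe set of Akt2 gave -0.13 (SE 0.15), and the dim one 0.75 (SE 0.51), where A/J replicate 1 read 3.50 and the other 5 arrays 5.04 to 5.86.

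Gsk3b (chr16:38089001-38246084), a kinase that AKT inhibits, had 6 probe sets, the most of the 9 genes. The brightest read 8.61, 8.80 and 8.72 on the A/J arrays against 8.76, 8.55 and 8.58 for A/J-12SM. The arrays overlapped, with a difference of -0.08 (SE 0.11; limma adjusted p = 0.927), the narrowest error of the 29 probe sets. The 95% interval of the ratio was 0.797 to 1.11. Over all 6 probe sets the differences ran from -0.19 to 0.45, the highest from the dim probe set, and the strains overlapped in every one.

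Foxo1 (chr3:52268337-52350109), the main FOXO factor of the fasting response in liver, had 3 bright probe sets of nearly equal brightness, all with higher means in A/J-12SM. The brightest read 8.23, 8.35 and 8.12 on the A/J arrays against 8.48, 8.44 and 8.78 for A/J-12SM. The strains did not overlap, with 0.09 between the nearest arrays, but on the values as deposited they did. The difference was 0.33 (SE 0.13, 95% interval 0.05 to 0.62), a ratio of 1.26 (1.03 to 1.54). The limma p was 0.026 before and 0.759 after adjustment, with an exact permutation p of 0.1. The dimmest of the 3 read 7.83, 8.12 and 8.06 against 8.12, 8.15 and 8.51, also without overlap, though A/J replicate 2 and A/J-12SM replicate 1 nearly touched. Its difference was 0.26 (SE 0.14). The remaining one, which shares probes with other transcripts, gave 0.18 (SE 0.16) with overlap. Without A/J-12SM replicate 3 the brightest gave 0.23, the dimmest of the 3 gave 0.13 and the remaining one 0.07, and without A/J replicate 3 the last gave 0.02. The fourth probe set of Foxo1 was dim and went the other way, at -1.46 (SE 0.75). These probe sets read the same RNA and are not independent of each other.

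Foxo3 (chr10:42181845-42276695), a related factor that AKT also phosphorylates, read 8.53, 8.66 and 8.72 on the A/J arrays against 8.56, 8.67 and 9.31 for A/J-12SM. As for Insr, A/J-12SM replicate 3 stood apart and the other arrays overlapped. The difference was 0.21 (SE 0.18; limma adjusted p = 0.885), and -0.02 without that array. The second probe set gave 0.12 (SE 0.17) and the dim one -0.25 (SE 0.80).

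**Figure D2:**
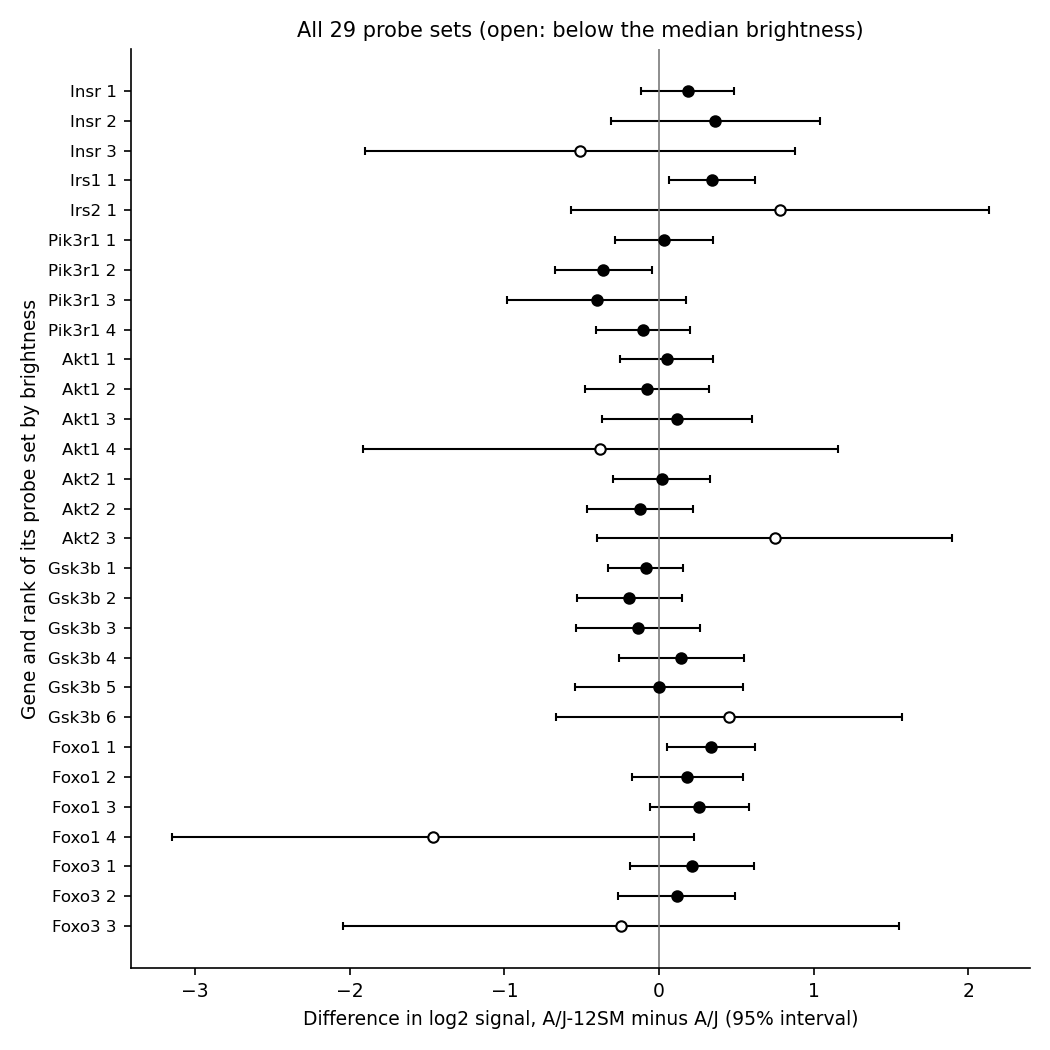
The log2 difference, A/J-12SM minus A/J, of each of the 29 probe sets (horizontal axis) with its 95% interval from limma over 3 arrays per strain, 1 line per probe set ordered by gene and brightness. Filled points are at or above the median brightness and open points below it. The intervals of Irs1, the first Foxo1 and the second Pik3r1 probe set leave out 0, and the 7 dim probe sets have the wide intervals.

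The SEs and the spread of the differences followed brightness. For the SEs this is partly built in, since limma with trend draws each variance towards that of probe sets of like brightness. The 22 brighter probe sets had SEs of 0.11 to 0.30 and differences of -0.40 to 0.36. The 7 dim ones had SEs of 0.50 to 0.80 and differences of -1.46 to 0.78. The median absolute difference was 0.14 in the brighter probe sets of the 9 genes and 0.14 in all probe sets of that brightness. Of the brighter 22, 13 had higher means in A/J-12SM and 9 lower, and of the 7 dim ones 3 higher and 4 lower.

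A/J-12SM replicate 3 held the highest value of 4 of the 9 genes (Insr, Irs2, Foxo1 and Foxo3) and A/J-12SM replicate 1 that of 3 (Irs1, Akt1 and Akt2). On the actin control probes, which show RNA and label length, its 5′ signal over its 3′ signal was 0.423, below the 0.553 to 0.590 of the other arrays. The matching ratio for the Gapdh controls was 1.53 on that array, within the range of 1.45 to 1.55 of the others. The part of RNA length in the Insr, Foxo1 and Foxo3 values was not tested. Without that array, the difference was 0.40 for Irs1 and 0.23 for Foxo1.

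The sign of the smaller differences depended on the scaling of the arrays. On the values as deposited, the median of all probe sets was -0.22, lower in A/J-12SM, and Insr (-0.02), Pik3r1 (-0.19), Akt1 (-0.19), Akt2 (-0.20) and Foxo3 (-0.01) turned sign. Relative to that shift they were 0.20 for Insr, 0.04 for Pik3r1, 0.04 for Akt1, 0.02 for Akt2 and 0.21 for Foxo3. Irs1, Irs2 and Foxo1 had higher means and Gsk3b lower means in A/J-12SM under each scaling run, but their sizes moved. On the values as deposited, Irs1 was 0.11, Irs2 0.54, Foxo1 0.11 and Gsk3b -0.31. Relative to the shift of all probe sets, these were 0.33, 0.77, 0.33 and -0.09. As deposited, the Irs1 signals were 631, 470 and 623 on the A/J arrays against 663, 617 and 567 for A/J-12SM, which overlapped. Those of Foxo1 overlapped too, at 339, 343 and 296 against 319, 334 and 406. The unadjusted limma p of Irs1 was 0.435 as deposited, 0.071 with arrays centred on the median and 0.034 with arrays scaled to 1 trimmed mean.

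**Figure D3:**
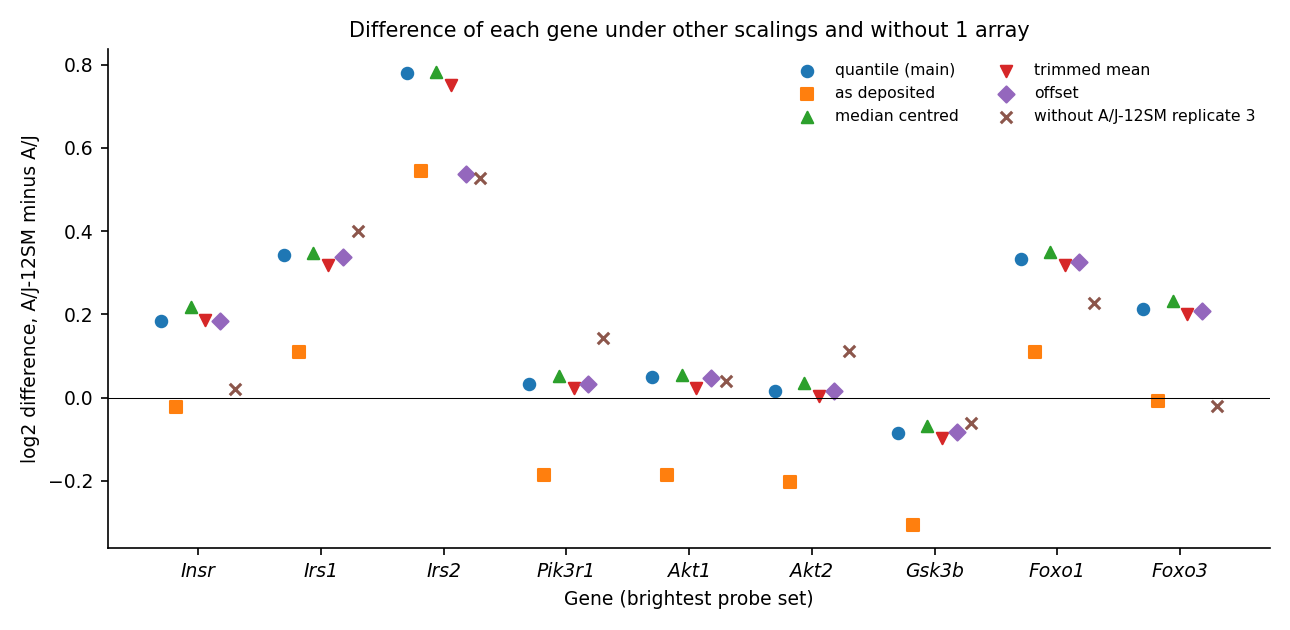
The log2 difference of the brightest probe set of each gene (vertical axis) under quantile normalisation, as deposited, with arrays centred on the median, with arrays scaled to 1 trimmed mean, with an offset added, and without A/J-12SM replicate 3. The values as deposited lie below all others for 7 of the 9 genes (not Irs2 or Foxo3), and leaving out the array moves Insr to 0.02 and Foxo3 to -0.02.

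The wider pathway was examined through 4 lists of genes around the 9, each gene by its brightest probe set. Of 60 genes measured, 0 were called, 32 had higher and 28 lower means in A/J-12SM, and the median difference was 0.04. Before adjustment 4 had a limma p under 0.05, and in 7 the arrays did not overlap. Both shares stood near those of all genes given above (6.78% and 12.3%).

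Among 17 genes at the receptor step (receptors, adaptors and their inhibitors), 10 had higher means in A/J-12SM and 7 lower. Sos1, an exchange factor that passes the signal to RAS, read 9.39, 9.47 and 9.51 on the A/J arrays against 9.64, 9.62 and 9.58 for A/J-12SM. The strains did not overlap, yet the difference was 0.16 (SE 0.09; limma adjusted p = 0.830). Grb10, an adaptor that inhibits the receptor, also had arrays that did not overlap, at 6.82 to 6.93 against 7.04 to 7.08, with a difference of 0.19 (SE 0.15). On the values as deposited, Sos1 gave -0.07 and Grb10 -0.04, where the median of all probe sets was -0.22. Of the genes that were not dim, Socs3 and Grb2 had the largest differences: Socs3, an inhibitor induced by cytokines, gave 0.63 (SE 0.43), and Grb2, the adaptor that binds SOS, -0.25 (SE 0.19). Leaving out 1 array gave 0.20 for Socs3 without A/J-12SM replicate 1 and 0.00 for Grb2 without A/J-12SM replicate 3. Sos2, the only list gene on chromosome 12, gave 0.16 (SE 0.28) and -0.23 without A/J-12SM replicate 3, with that array at 9.32 and the other 5 at 8.15 to 8.58.

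At the lipid kinase and AKT step, 9 of 17 genes had higher means in A/J-12SM and 8 lower. Pik3c2a, a class II kinase of the family, read 8.99, 9.08 and 9.18 on the A/J arrays against 9.20, 9.35 and 9.60 for A/J-12SM, a difference of 0.30 (SE 0.12; limma adjusted p = 0.776). Pik3r2, a second regulatory subunit, read 7.06, 7.03 and 7.43 against 6.66, 6.91 and 6.87, a difference of -0.36 (SE 0.17). In both genes the strains did not overlap. Pik3cd, the catalytic subunit found mostly in leukocytes, had a difference of -0.32 (SE 0.18) with overlapping arrays. Leaving out 1 array brought Pik3c2a to 0.19 (A/J-12SM replicate 3), Pik3r2 to -0.23 (A/J replicate 3) and Pik3cd to -0.15 (A/J replicate 1).

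The mTOR branch had 14 genes measured, 7 higher and 7 lower, none with separate arrays. Rictor, a subunit of the complex that phosphorylates AKT, gave 0.28 (SE 0.13; limma adjusted p = 0.804). Rps6kb2, an S6 kinase, gave -0.23 (SE 0.16), and -0.12 without A/J-12SM replicate 3. Among 12 genes of the GSK3, FOXO and AKT substrate list, 6 were higher and 6 lower. Pde3b, a phosphodiesterase that insulin activates through AKT, read 10.48, 10.22 and 10.34 on the A/J arrays against 10.69, 10.60 and 11.15 for A/J-12SM, a difference of 0.46 (SE 0.14; limma adjusted p = 0.622). Without A/J-12SM replicate 3 it was 0.30. Mdm2, the ligase that marks p53 for destruction, read 8.05, 8.17 and 8.20 against 7.74, 7.90 and 7.75, a difference of -0.35 (SE 0.12; limma adjusted p = 0.691). Cdkn1b, an inhibitor of the cell cycle named after its values were seen, was the third gene of that list without overlap, at 0.33 (SE 0.14).

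**Figure D4:**
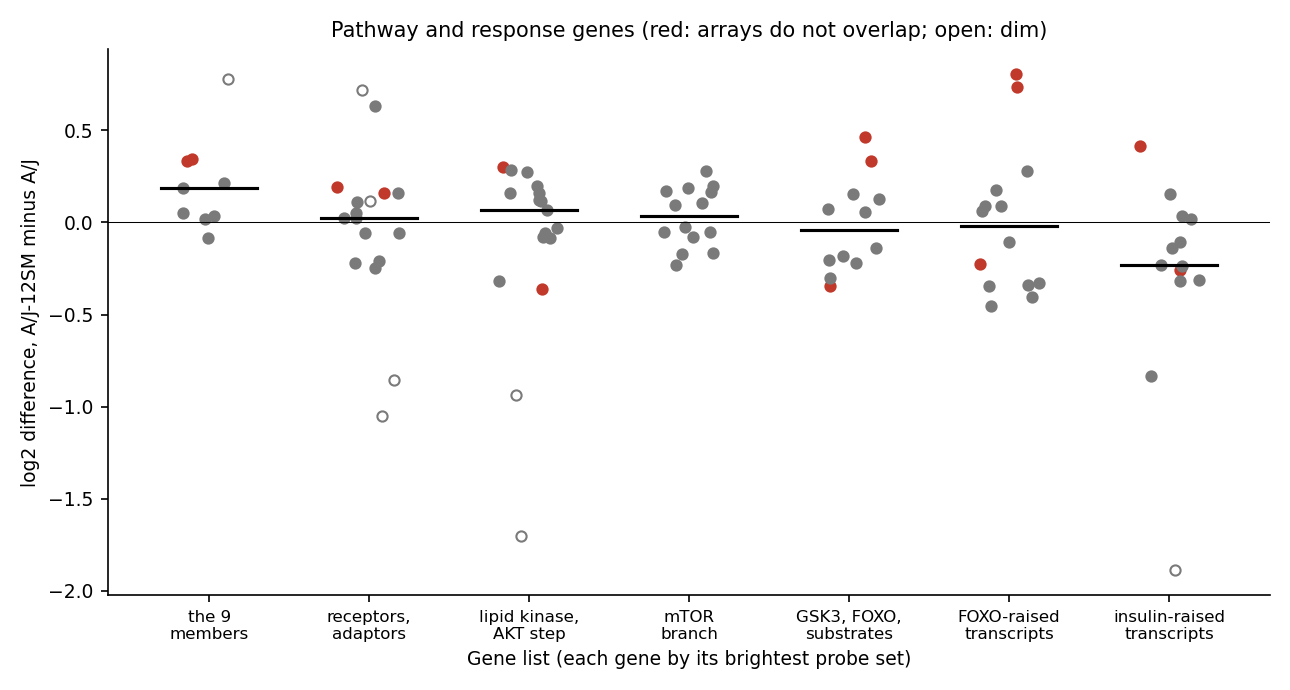
The log2 difference of each measured gene (vertical axis), by its brightest probe set, in the 9 genes, the 4 wider pathway lists and the 2 response lists. Bars mark list medians, red points are genes whose arrays do not overlap between the strains, and open points are below the median brightness. The medians lie between -0.23 (transcripts that insulin raises) and 0.18 (the 9 genes).

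Transcripts that respond to the pathway were divided into 14 that FOXO factors raise when insulin is low and 13 that insulin raises in liver. In the first list 7 had higher and 7 lower means in A/J-12SM, with a median of -0.02. In the second 4 were higher and 9 lower, with a median of -0.23. The mean level of the second list, centred over the 6 arrays, was 0.12, 0.24 and 0.07 on the A/J arrays against 0.24, -0.21 and -0.46 for A/J-12SM. The strains overlapped, since A/J-12SM replicate 1 was as high as any A/J array. The 8 Kupffer cell markers, on the same scale, were at -0.02, 0.19 and 0.23 against 0.21, -0.17 and -0.44, and their part in the list's values was not tested. Over both lists 0 of 27 were called, 5 had an unadjusted p under 0.05, and 5 had arrays that did not overlap, beside 6.78% and 12.3% of all genes.

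Pck1, the gluconeogenic enzyme that makes phosphoenolpyruvate, read 11.37, 11.25 and 11.68 on the A/J arrays against 12.03, 12.05 and 12.63 for A/J-12SM. Each A/J-12SM array lay above each A/J array. The difference was 0.81 (SE 0.17, 95% interval 0.43 to 1.18), a ratio of 1.75. The limma p was 0.001 before and 0.338 after adjustment, with an exact permutation p of 0.1. Without A/J-12SM replicate 3 the difference of Pck1 was 0.61.

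Igfbp1, a secreted binding protein of insulin-like growth factors whose transcription insulin represses, read 8.82, 8.14 and 8.84 on the A/J arrays against 8.91, 8.99 and 10.11 for A/J-12SM. The strains did not overlap, with 0.07 between the nearest arrays, and A/J-12SM replicate 3 stood above the rest. The difference was 0.74 (SE 0.30; limma adjusted p = 0.789), and without that array it was 0.35. Its promoter (plus strand, chr11:7197537-7197786, GRCm38.p6) is shown because it is the textbook insulin response promoter and can be set beside those of Irs1 and Irs2. Capitals mark CAAAACA, 102 to 108 bases before the start.
Igfbp1: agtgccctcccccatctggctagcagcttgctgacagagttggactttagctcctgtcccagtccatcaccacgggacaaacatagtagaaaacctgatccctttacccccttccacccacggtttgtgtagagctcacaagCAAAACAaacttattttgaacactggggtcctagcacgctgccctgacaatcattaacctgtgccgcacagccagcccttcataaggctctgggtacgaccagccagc
Among 23 response genes with a promoter window, the same motif was in those of 3, Igfbp1, G6pc and Thrsp, and GTAAACA in that of 1, Elovl6. In the FOXO list, lower means were seen for G6pc, the enzyme that releases free glucose, at -0.33 (SE 0.18), and for Trib1, a regulator of lipogenesis, at -0.23 (SE 0.14) without overlap. Both were named after their values were seen. Thus Pck1 and G6pc, which act in the same pathway, had opposite signs, and neither passed the test.

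Among the transcripts that insulin raises, the signs were also mixed. Gpam, which starts triglyceride synthesis from glycerol phosphate, read 12.05, 12.06 and 11.97 on the A/J arrays against 11.83, 11.71 and 11.77 for A/J-12SM. The strains did not overlap, with a difference of -0.26 (SE 0.08; limma adjusted p = 0.622). Elovl6, which elongates palmitate, read 8.38, 8.37 and 8.27 against 9.09, 8.54 and 8.62, a difference of 0.41 (SE 0.15; limma adjusted p = 0.734) in the other direction, and 0.24 without A/J-12SM replicate 1. Acacb, the acetyl-CoA carboxylase at mitochondria, read 7.49, 7.06 and 7.09 against 7.44, 6.43 and 5.27, a difference of -0.83 (SE 0.44) with A/J-12SM replicate 3 far below the other arrays, and -0.28 without it. Pklr, liver pyruvate kinase, gave -0.32 (SE 0.13) with overlap. Fasn, fatty acid synthase, gave -0.31 (SE 0.15) and Srebf1, a factor that drives Fasn, 0.02 (SE 0.13). Pklr, Fasn and Srebf1 were named after their values were seen.

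**Figure D5:**
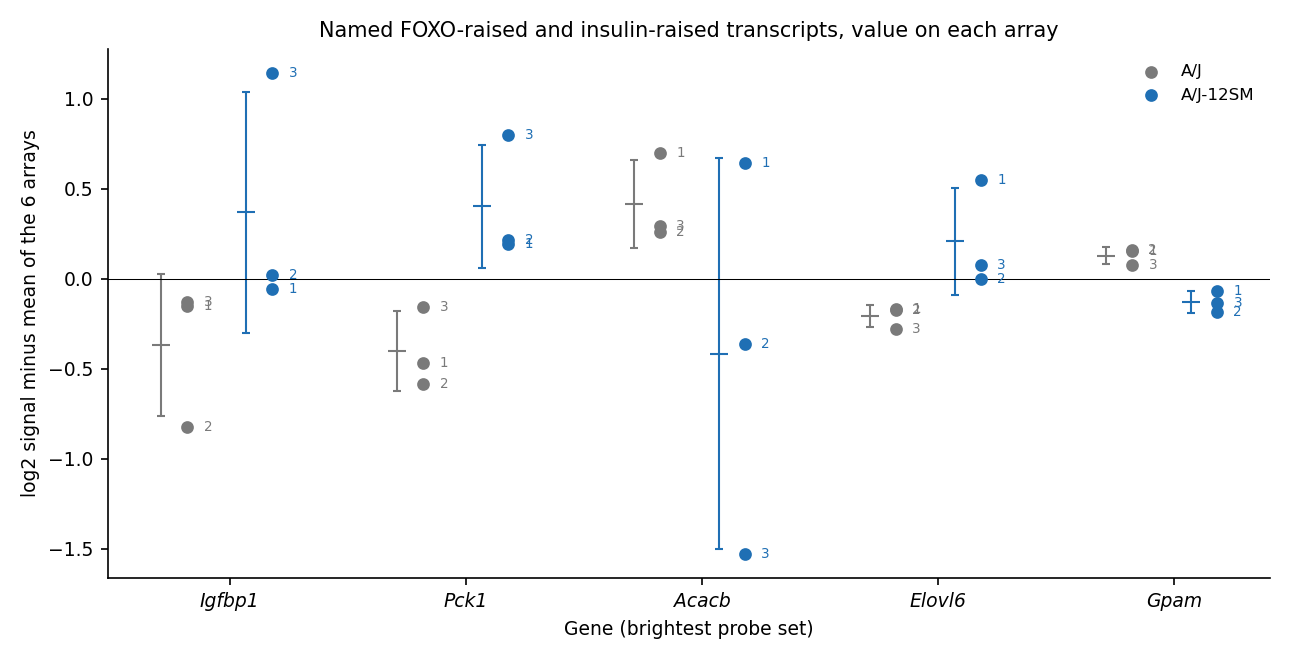
The log2 signal on each array minus the mean of the 6 arrays (vertical axis) for the named FOXO-raised transcripts (Igfbp1, Pck1) and insulin-raised transcripts (Acacb, Elovl6, Gpam). Points are arrays with replicate numbers, A/J in grey and A/J-12SM in blue, and bars give the mean and SD of 3 arrays. All but Acacb separate by strain, Gpam with the A/J arrays higher.

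Other cells of the liver also express these genes, and markers of those cells were read on the same arrays. Of 8 Kupffer cell markers, 7 had lower means in A/J-12SM (median -0.27, none called), and their mean level, centred over the 6 arrays, was -0.02 to 0.23 in A/J and -0.44 to 0.21 in A/J-12SM. All 8 stellate cell markers had higher means (median 0.04, none called), at -0.20 to -0.02 against -0.05 to 0.38. A/J-12SM replicate 3 held the lowest Kupffer and the highest stellate value. Liver endothelial markers split 4 and 4, with a median of 0.02. Of the other lists, 3 of 4 bile duct, 2 of 4 adipocyte and 3 of 6 lymphocyte markers had lower means, and most of these were dim. The part of these cells in the values of the 9 genes was not tested.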

How the data were processed

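Liver RNA of A/J and A/J-12SM mice was hybridised to 6 one-colour Affymetrix arrays. The labels give strain and replicate. The authors deposited linear intensity values made with MAS5, as the submitters' processing notes say. Its version and scaling target are not stated in the sources used here. Because array levels differed between the strains, log2 values were quantile normalised, which would also remove a true overall shift. Limma 3.58.1 in R 4.3.3 (lmFit, eBayes with trend, no covariates) was fitted to 45037 probe sets (64 controls left out), with Benjamini-Hochberg adjustment over all of them and calls at an adjusted p under 0.05. Limma p-values and SEs rest on the spread between pools of mice, drawn towards that of probe sets of like brightness. Single values were also compared by a two-sided exact permutation test.

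Of 34945 probe sets with 1 gene in the platform annotation, 34741 were matched to the RefSeq table of GRCm38.p6. A gene was represented by its brightest probe set on average over the 6 arrays. The 9 genes and the lists were chosen with earlier results of these data known. Some listed genes are not reported here. Named list genes were any called and, with none called, the 2 with the largest absolute difference at or above the median brightness, up to 2 per list without overlap between strains (lowest unadjusted p), and those on chromosome 12. Other list genes that the text names were picked after their values were seen, and it says so beside them. Promoter windows came from RefSeq. The SD of arrays is given by strain, and the number of arrays limits the precision.

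The limma step was tested on simulated data with 200 of 45037 probe sets changed, all from brighter ones, in 10 runs. It recovered 3.53% of differences of 0.5 on the log2 scale, 33.3% of 1 and 71.1% of 2, and 3.64% of calls were false. Alternatives were other scalings, an offset of 9.2 (the 20th percentile of signals), dropping the probe sets under the 40th brightness percentile, 1 prior variance, the methods' t-test, a replicate block, the mean over a gene's probe sets, and each array left out. The paper names that t-test for comparing means of the 2 strains and names no test for arrays. The count of probe sets at an unadjusted p under 0.05 was recomputed after seeing the data.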

Additional observations from a re-analysis of the deposited data

How the results depend on the processing

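None of the 29 probe sets of the 9 genes and none of the 60 wider pathway genes was called under any alternative run. At an unadjusted p under 0.05, a count recomputed after seeing the data, 3 of the 29 fell to 0 with 1 prior variance and to 0 by the methods' t-test, and leaving out single arrays gave 1 (A/J replicate 2 or A/J-12SM replicate 3) to 3. Over all probe sets, 25 calls became 47 on the values as deposited, 1 with 1 prior variance and 1 by the methods' t-test. Leaving out single arrays gave 6 (A/J replicate 2) to 23, 11 when A/J replicate 3 was left out, 14 for A/J replicate 1 or A/J-12SM replicate 2, and 16 for A/J-12SM replicate 1. The median difference of the 9 genes, 0.18, was -0.022 on the values as deposited and 0.028 when a gene's probe sets were averaged. Dropping dim probe sets, 1 prior variance, the replicate block and the methods' t-test leave a gene's difference unchanged, so they could not reverse it. Of 126 recomputed differences of single genes, those included, 115 kept their direction and 11 reversed. As deposited these were Insr (-0.022), Pik3r1 (-0.19), Akt1 (-0.19), Akt2 (-0.20) and Foxo3 (-0.0078), where the median of all probe sets was -0.22. With single arrays left out, Pik3r1 ran from -0.087 to 0.14, Akt1 from -0.016 to 0.13, Akt2 from -0.11 to 0.11 and Foxo3 from -0.019 to 0.36.

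Replicate numbers are shared by the strains but did not pair the arrays: the correlations of same-numbered arrays' deviations were -0.06, 0.09 and 0.16. With the number as a replicate block, 1 response transcript was called, Pck1 (adjusted p = 0.035, and 0.202 to 0.943 under the other alternatives). None of the 29 probe sets was called with that block.

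Dim probe sets (7 of 29) and 3 arrays per strain limit these results. In simulated data 3.53% of differences of 0.5 on the log2 scale were recovered, so 0 calls does not show equal levels.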
